A study of Mus musculus with 6 samples.

Results

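The 54 genes described here encode the Wnt ligands, the enzyme that prepares them for secretion, their receptors, their secreted antagonists, the R-spondin module and the signaling proteins and feedback targets inside the cell. They were chosen by name, as the rows of the gene table whose symbol is on the list, and all 54 were found among its 18872 genes. Of these, 50 had a mean of at least 10 normalized counts over the 6 libraries and were tested. The other 4, the ligand gene Wnt2, the antagonist genes Sfrp5 and Wif1 and the receptor gene Lgr6, had lower means and were not tested.

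Wnt proteins are secreted, lipid-modified signals that act mostly on neighbouring cells. In the canonical branch a Wnt binds a Frizzled receptor together with LRP5 or LRP6, the complex that destroys beta-catenin is switched off, and beta-catenin enters the nucleus to activate genes with TCF/LEF factors. In the non-canonical branch ligands such as WNT5A and WNT11 act through Frizzleds with ROR or RYK receptors on cell shape, polarity and Ca2+ release. R-spondins, which bind LGR receptors, protect Frizzleds from the membrane ubiquitin ligases ZNRF3 and RNF43, and so raise the response of a cell to Wnt. In embryonic mesenchyme, from which fibroblast cultures are derived, both branches are known for their part in patterning, limb and body axis outgrowth and the choice of cell fate.

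RNA was sequenced from mouse embryonic fibroblasts (MEFs), primary cultures grown from the trunks of E14.5 embryos on a B6 background. There were 3 SARAF-KO-labelled and 3 SARAF-WT-labelled libraries. SARAF is a regulator of store-operated Ca2+ entry, the influx that follows emptying of the endoplasmic reticulum, and the comparison asks how gene expression differs in its absence. SARAF-KO animals carried PGK-Cre and SARAF fl/fl, that is, a floxed Saraf exon on both alleles and a Cre recombinase under the PGK promoter, which acts in all tissues. SARAF-WT animals were littermates with the same homozygous floxed alleles and no Cre. The cultures received no treatment. It is not stated which embryo each library came from, so p-values measure only the spread between these libraries, which may be technical.

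The targeted gene ran against the labels. Saraf (ENSMUSG00000031532.6, chromosome 8 of GRCm38, 34154575 to 34170821, plus strand) had 4631, 4476 and 4384 normalized counts (reads divided by the size factor of the library) in the SARAF-KO-labelled libraries, against 3268, 3409 and 3306 in the SARAF-WT-labelled ones. The groups did not overlap and the gene was higher in the SARAF-KO-labelled libraries by 0.43 (SE 0.03, n = 3 each). All log2 changes here are on this scale of log2(normalized count + 1). By limma, the test used for the listed genes below, its adjusted p was 4.2e-12, and the call held in all 18 alternative analyses. The two-sided exact permutation p was 0.1, the smallest that 3 libraries against 3 can give. Any gene whose groups do not overlap would have that same permutation p. Gene counts include exons outside the floxed one, so this does not measure the deleted exon. Whether the labels were exchanged was not tested and cannot be told from these counts. Directions below are given by the labels of the libraries, and an exchange would turn every one of them round.

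Read totals per library, recovered from the normalized counts, ran between 32799080 and 37979662 in the SARAF-KO-labelled libraries and between 24595137 and 32228588 in the SARAF-WT-labelled ones. The groups differed widely: 56.2% of the 13986 genes tested were called at an adjusted p under 0.05 by limma with Benjamini-Hochberg adjustment, 28.2% higher and 28.0% lower in the SARAF-KO-labelled libraries. Fibroblast markers were abundant in every library, with a summed level over 9 genes of 267207 to 274338 in the SARAF-KO-labelled libraries and 315430 to 319823 in the SARAF-WT-labelled ones, and 6 of the 9 were lower and 2 higher. The 6 smooth muscle markers summed to 4773 to 5510 in the SARAF-KO-labelled libraries and 13749 to 17460 in the SARAF-WT-labelled ones, with 5 of 6 tested genes lower. Of 5 listed mesothelial markers 4 were in the table. They summed to 4864 to 5292 in the SARAF-KO-labelled libraries and 1648 to 1721 in the SARAF-WT-labelled ones, with 3 of 3 tested genes higher. The 7 neural crest and Schwann cell markers summed to 4103 to 4340 in the SARAF-KO-labelled libraries and 785 to 836 in the SARAF-WT-labelled ones, with 4 of 5 tested genes higher. Most tested smooth muscle markers were thus lower, and the tested mesothelial and most tested neural crest markers higher, in the SARAF-KO-labelled libraries. The 5 chondrocyte markers summed to 625 to 720 in the SARAF-KO-labelled libraries and 933 to 983 in the SARAF-WT-labelled ones, with both tested genes lower. The 4 endothelial markers summed to 1256 to 1355 in the SARAF-KO-labelled libraries and 2086 to 2123 in the SARAF-WT-labelled ones, with 1 of the tested genes higher and 1 lower. The neuron and immune lists each had 2 of 3 tested genes higher, the neuron list summing to 1363 to 1412 in the SARAF-KO-labelled libraries and 993 to 1175 in the SARAF-WT-labelled ones, and the immune list to 491 to 521 in the SARAF-KO-labelled libraries and 429 to 455 in the SARAF-WT-labelled ones. The gene table held no gene at 0 in all 6 libraries. Absent from it were the listed markers Lrrn4 (mesothelial), Emcn (endothelial), Adgre1 and Tyrobp (immune), Krt14 (epithelial), Myod1 (skeletal muscle) and Ibsp (osteoblast). Sox10, which defines neural crest derived glia, was at 0 in all 3 SARAF-KO-labelled libraries, and so was Rbfox3, which marks mature neurons. Both were at most 2.63 in the SARAF-WT-labelled ones. Ptprc, the common marker of blood cells, had at most 0.986 normalized counts in the SARAF-KO-labelled libraries and 0 in the SARAF-WT-labelled ones. Several of the sums rest largely on 1 gene, given here with its SARAF-KO-labelled and SARAF-WT-labelled means. These are Msln (4904 and 1562, mesothelial), Sox2 (2960 and 602, neural crest), Sox9 (644 and 917, chondrocyte) and Kdr (1187 and 2021, endothelial). Tubb3 (1196 and 1024, neuron) and the uncalled Cd68 (363 and 381, immune) are further such genes. The mesothelial marker Upk3b, under the minimum mean, was at 2.08 and 3.16. These lists move with the results that follow, and their part in them was not tested. In cultures measured in bulk, fewer cells of a type and less RNA per cell cannot be told apart.

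Most of the listed genes that differed were lower in the SARAF-KO-labelled libraries. Of the 50 tested, 26 (52.0%) were lower and 10 (20%) were higher, against the 28.0% and 28.2% of all genes tested. The 36 called genes are 72% of the list, against 56.2% of all genes. By edgeR on the recovered reads 35 of the 50 were called, where 56.3% of all genes were. At an absolute log2 change of at least 0.5 there were 16 lower and 5 higher genes, together 42.0% of the 50, where 12.7% of all genes tested were called at that size (7.72% lower and 4.95% higher). At an absolute change of at least 1 there were 8 lower and 2 higher genes, or 20%, where the share of all genes was 4.69% (2.65% lower and 2.04% higher). In 39 of the 50 genes (78.0%) the groups did not overlap, against 61.4% of all genes tested. The median log2 change of the list was -0.13, and that of all genes tested -0.0014. Among the 50, Lgr5 and Dkk1 reached the minimum mean through the group where they were higher. A count made after the values were seen took the 48 that averaged 10 or more in each group. Of these 25 (52.1%) were lower and 10 (20.8%) higher, against 28.1% and 28.1% of all 13705 genes under that filter. By at least 0.5, 15 lower and 5 higher genes made up 41.7%, against 11.7%. By at least 1, 7 lower and 2 higher genes made up 18.8%, against 3.71%.

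**Figure D1:**
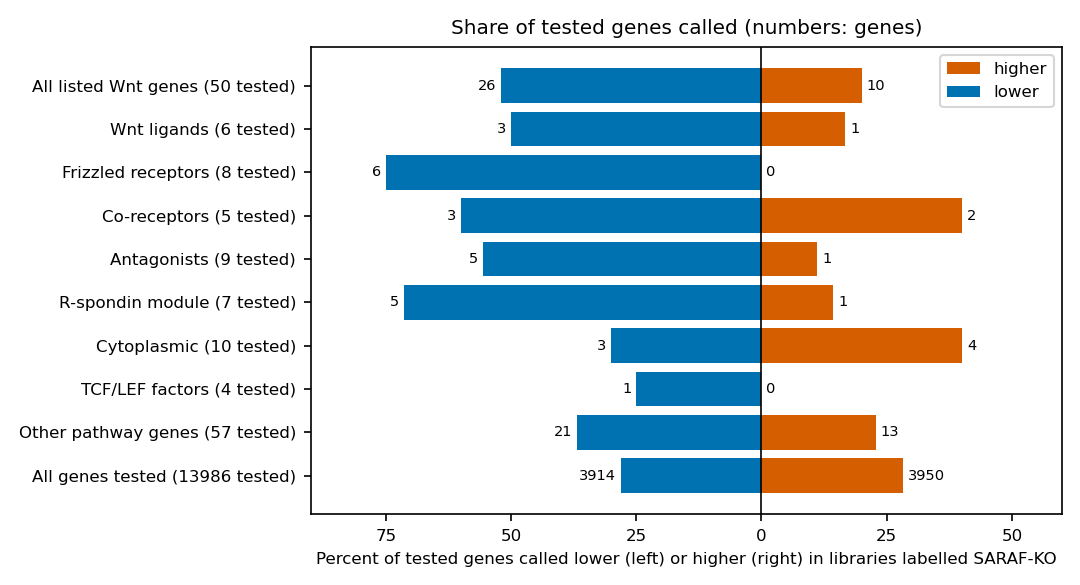
Percent of tested genes called lower (bars to the left) and higher (bars to the right) in SARAF-KO-labelled libraries by limma at an adjusted p under 0.05, with the number of genes at the end of each bar; Porcn, the only gene of its role, is counted in the top row alone. The listed genes have 26 lower and 10 higher calls among 50, while all 13986 genes have 3914 lower and 3950 higher.

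Lower calls were found in every role but that of Porcn. Of 8 Frizzled genes 6 were lower (75%) and 0 higher. Of 7 tested genes of the R-spondin module 5 were lower (71.4%) and 1 higher (4 and 1 of 6 without Lgr5). Of 9 tested antagonists 5 were lower (55.6%) and 1 higher. The cytoplasmic proteins were mixed, with 3 of 10 lower (30%) and 4 higher (40%), and of the 4 TCF/LEF genes 1 was lower (25%). Of all genes tested 28.0% were lower and 28.2% higher. The lower calls of the cytoplasmic and TCF/LEF genes were thus near the share of all genes. Differences between these roles were not tested.

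**Figure D2:**
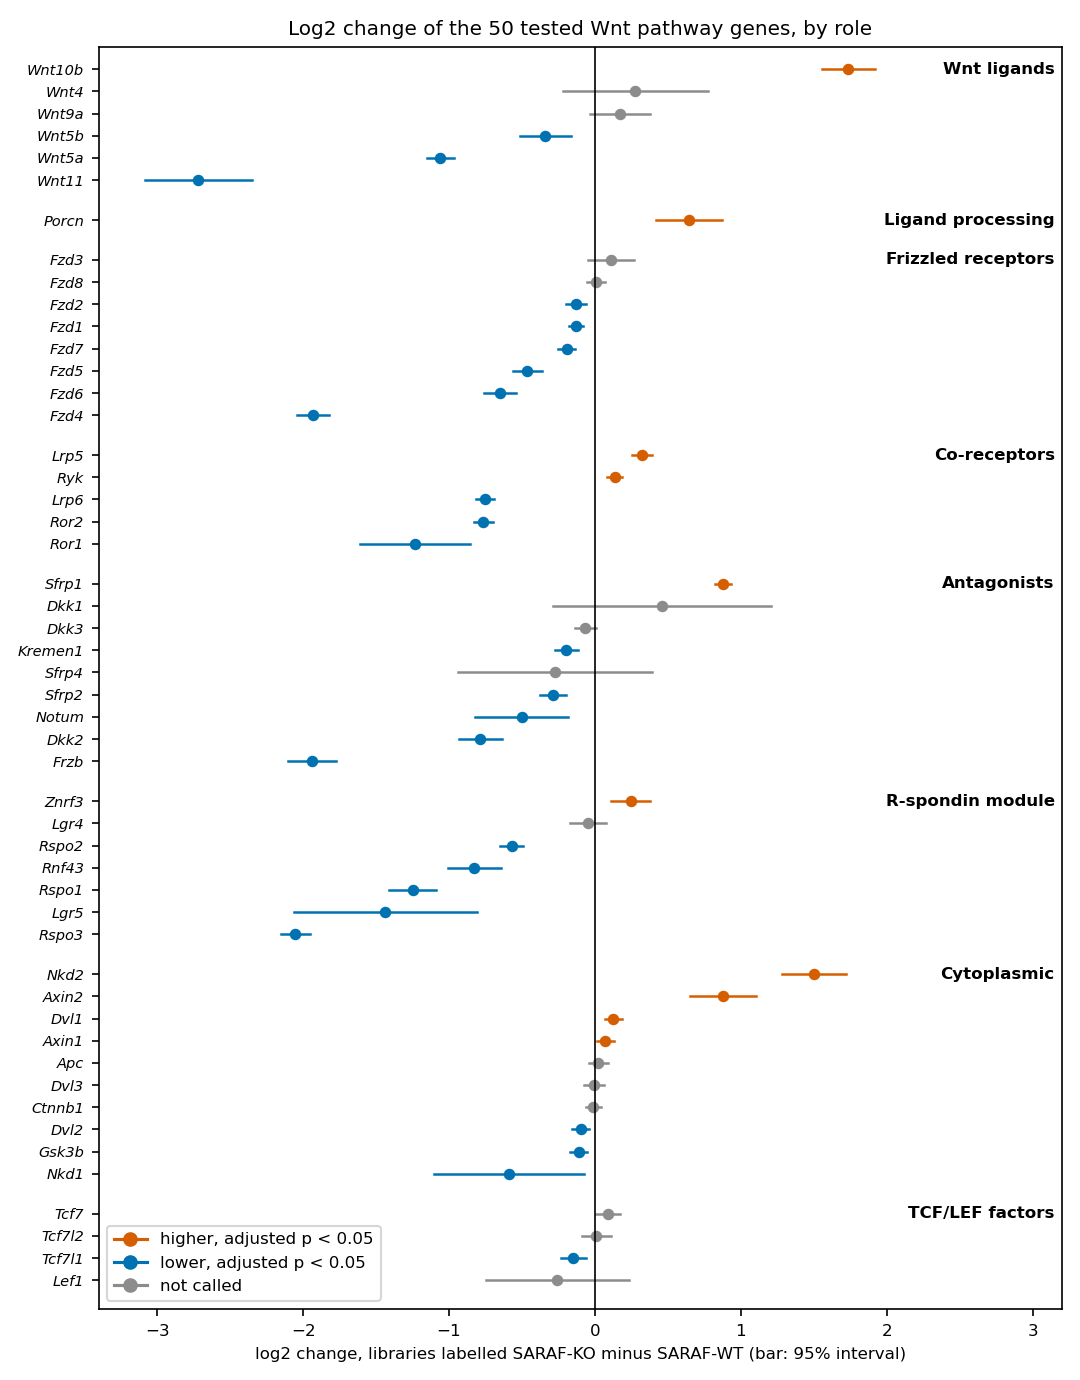
Log2 change of the 50 tested genes, SARAF-KO-labelled libraries minus SARAF-WT-labelled libraries, grouped by role (points, with bars for the 95% interval from limma; colours mark the call at an adjusted p under 0.05). The values run between -2.72 for Wnt11 and 1.74 for Wnt10b, and the Frizzled genes have no point called to the right of 0.

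Among the 6 tested ligand genes of the list, the strongest fall was in Wnt11 and the strongest rise in Wnt10b, and the most abundant ligand of the SARAF-WT-labelled libraries, Wnt5a, was also lower. Of these 6 genes 3 were lower (50%) and 1 was higher (16.7%), against 28.0% and 28.2% of all genes tested. Wnt7b, outside the list, had a larger log2 change than Wnt10b, at 2.98. Wnt11, a non-canonical ligand (ENSMUSG00000015957.12, chromosome 7, 98835112 to 98855195, plus strand), had 16.1, 20.6 and 26.6 normalized counts in the SARAF-KO-labelled libraries, against 151, 146 and 129 in the SARAF-WT-labelled ones. All 3 SARAF-KO-labelled libraries lay far below the others, the means being 6.72-fold apart. Its log2 change was -2.72 (SE 0.18, limma adjusted p = 2.3e-12).

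Wnt5a, the other main non-canonical ligand (ENSMUSG00000021994.15, chromosome 14, 28504750 to 28527448, plus strand), had 709, 695 and 646 normalized counts in the SARAF-KO-labelled libraries, against 1444, 1389 and 1444 in the SARAF-WT-labelled ones. The groups were well separated and the log2 change was -1.06 (SE 0.04, limma adjusted p = 4.4e-16). Wnt5a lies on chromosome 14, on which 287 of 455 tested genes were lower and 50 higher in the SARAF-KO-labelled libraries, with a median log2 change of -0.27. Within 2 Mb of it 8 of 12 tested genes were lower and 2 higher, with a median of -0.25, so the change of Wnt5a was larger than the median of its neighbours. Without the chromosome 14 genes Wnt5a and Fzd3, 25 of 48 listed genes were lower (52.1%) and 10 higher (20.8%). Of all genes tested, chromosome 14 included, 28.0% were lower and 28.2% higher. Wnt5b, its close relative, had a smaller log2 change of -0.34 (SE 0.08). Within 2 Mb of Wnt5b 18 of 27 tested genes were lower and 2 higher, with a median log2 change of -0.18.

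Wnt10b, a canonical ligand known for holding mesenchymal precursors back from becoming fat cells (ENSMUSG00000022996.15, chromosome 15, 98770712 to 98778150, minus strand), ran the other way. It had 344, 344 and 324 normalized counts in the SARAF-KO-labelled libraries, against 101, 105 and 95.9 in the SARAF-WT-labelled ones, a 3.36-fold difference of means with no overlap. The log2 change was 1.74 (SE 0.09, limma adjusted p = 2.1e-14). Wnt4 and Wnt9a did not pass the test, at 0.28 (95% interval -0.22 to 0.77) and 0.17 (-0.03 to 0.38), and Wnt2 was near the floor, at 3.43 to 11.0 normalized counts in the SARAF-KO-labelled libraries and 3.04 to 6.22 in the SARAF-WT-labelled ones. Porcn (chromosome X, 8193848 to 8206525, minus strand), the acyltransferase that attaches the lipid Wnts need for secretion, had 246, 197 and 210.0 normalized counts in the SARAF-KO-labelled libraries, against 122, 161 and 135 in the SARAF-WT-labelled ones. Its values did not overlap and it was higher by 0.64 (SE 0.11).

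Placed on a common scale, normalized counts per kilobase of exon, the ligands changed in make-up more than in sum. Over the 18 Wnt genes of the table the summed level was 505 ± 3.91 in the SARAF-KO-labelled libraries and 553 ± 7.75 in the SARAF-WT-labelled ones (SD, n = 3 each). Wnt5a made up 17.3% ± 0.92 of that sum in the SARAF-KO-labelled libraries and 33.0% ± 0.31 in the SARAF-WT-labelled ones. The share of Wnt10b was 19.7% ± 0.73 in the SARAF-KO-labelled libraries and 5.35% ± 0.29 in the SARAF-WT-labelled ones. Wnt11 made up 1.01% ± 0.25 in the SARAF-KO-labelled libraries and 6.20% ± 0.53 in the SARAF-WT-labelled ones. In the SARAF-WT-labelled libraries Wnt5a was thus the leading ligand, while in the SARAF-KO-labelled ones Wnt10a (20.4% ± 1.91), Wnt10b and Wnt5a lay close together. There the shares of Wnt10a (18.5 to 22.3%) and Wnt10b (18.8 to 20.2%) overlapped between libraries. This order rests on the annotated exon lengths. By mean normalized counts Wnt5a (683) was above Wnt10b (338) and Wnt10a (255) in the SARAF-KO-labelled libraries too.

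**Figure D3:**
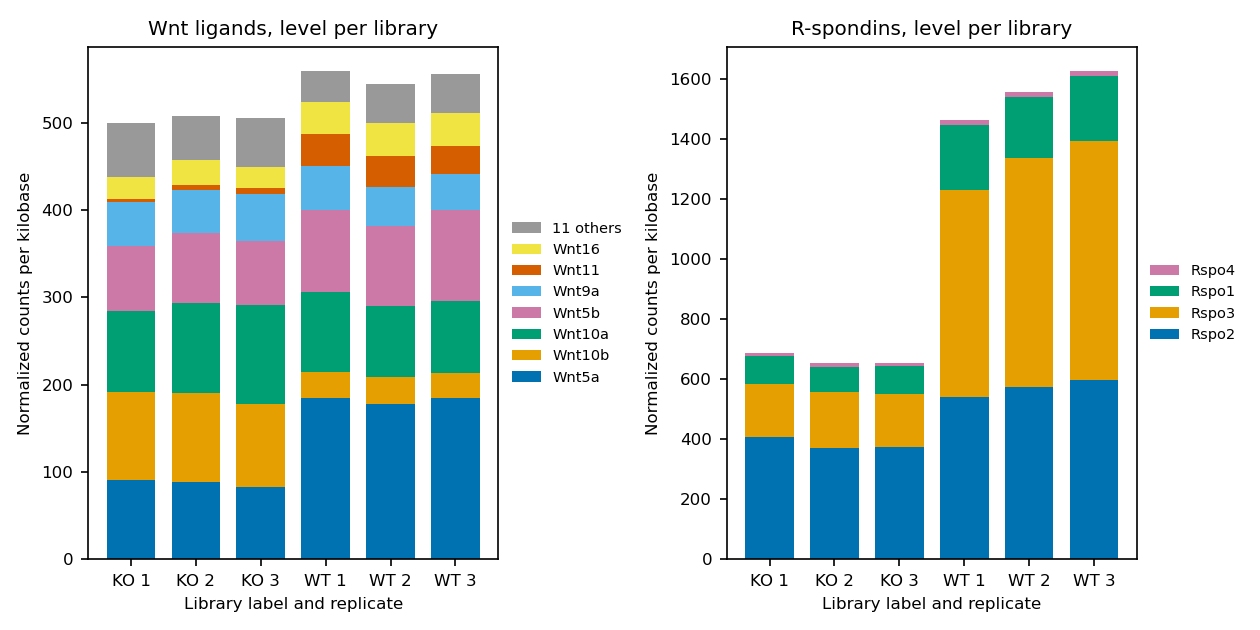
Levels in normalized counts per kilobase of exon, stacked by gene, for the Wnt ligands (left) and the R-spondins (right) in each library; KO and WT stand for the labels SARAF-KO and SARAF-WT. The Wnt sums lie at 500 to 508 in SARAF-KO-labelled libraries and 544 to 559 in the SARAF-WT-labelled ones, and the R-spondin sums at 651 to 686 in SARAF-KO-labelled libraries and 1463 to 1624 in the SARAF-WT-labelled ones.

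The stretches in front of 4 genes are given because Wnt11, Fzd4 and Wnt10b had large changes in opposite directions and Axin2 is the usual feedback readout. Each is the RefSeq window (GRCm38.p6) of 250 bases before to 50 bases after the annotated start, in the direction of the gene. Wnt11 has a second window in the table, at chr7:98838595-98838894, which held no match, and the one at the start of the gene model is shown. Capitals mark a match to the TCF/LEF letters CTTTGAT or CTTTGAA on either strand.
Wnt11: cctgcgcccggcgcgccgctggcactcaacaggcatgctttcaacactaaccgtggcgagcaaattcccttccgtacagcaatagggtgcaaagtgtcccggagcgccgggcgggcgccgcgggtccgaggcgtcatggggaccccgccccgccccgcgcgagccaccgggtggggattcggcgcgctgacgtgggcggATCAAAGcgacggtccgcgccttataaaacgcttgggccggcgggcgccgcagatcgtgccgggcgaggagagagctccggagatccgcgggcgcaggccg
Fzd4: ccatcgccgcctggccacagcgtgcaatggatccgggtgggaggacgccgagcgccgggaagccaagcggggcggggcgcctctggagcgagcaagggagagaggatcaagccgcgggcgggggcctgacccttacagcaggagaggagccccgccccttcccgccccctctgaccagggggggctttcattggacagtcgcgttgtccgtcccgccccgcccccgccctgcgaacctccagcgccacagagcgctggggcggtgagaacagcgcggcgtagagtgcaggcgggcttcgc
Wnt10b: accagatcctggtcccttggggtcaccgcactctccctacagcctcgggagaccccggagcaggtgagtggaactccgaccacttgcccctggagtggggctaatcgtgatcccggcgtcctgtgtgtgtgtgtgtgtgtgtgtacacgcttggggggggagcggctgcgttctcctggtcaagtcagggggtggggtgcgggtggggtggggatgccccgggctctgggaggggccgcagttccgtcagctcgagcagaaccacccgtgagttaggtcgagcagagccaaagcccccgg
Axin2: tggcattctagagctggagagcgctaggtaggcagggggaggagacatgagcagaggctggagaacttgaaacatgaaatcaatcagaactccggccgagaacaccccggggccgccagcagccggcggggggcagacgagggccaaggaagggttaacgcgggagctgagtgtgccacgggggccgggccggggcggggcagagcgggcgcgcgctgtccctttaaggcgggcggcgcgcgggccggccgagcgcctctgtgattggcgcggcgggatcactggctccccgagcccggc

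Their positions are chr7:98834862-98835161 (plus strand) for Wnt11, chr7:89404116-89404415 (plus) for Fzd4, chr15:98778101-98778400 (minus) for Wnt10b and chr11:108920099-108920398 (plus) for Axin2. In the Wnt11 window the match lies on the minus strand and begins 51 bases before the start. RefSeq windows were matched for 35 of the 54 genes, 45 windows in all, of which 3 windows (6.67%), of Wnt5b, Wnt11 and Dkk1, held a match. Of all 32851 windows of the same length 8.65% held one. The windows of the listed genes had a median GC content of 66% and 23 CpG, against 52.7% and 7 CpG over all windows. A match is a description of the letters and not evidence of binding.

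Among the Frizzled receptors, Fzd4 had a large fall and Fzd6 a moderate one, while the abundant Fzd1, Fzd2 and Fzd7 were slightly lower. Fzd4, a receptor best known from retinal vessels (ENSMUSG00000049791.4, chromosome 7, 89404355 to 89413134, plus strand), had 316, 318 and 312 normalized counts in the SARAF-KO-labelled libraries, against 1245, 1217 and 1157 in the SARAF-WT-labelled ones. The spread within each group was small beside the 3.83-fold difference of means, and the log2 change was -1.93 (SE 0.05, limma adjusted p = 4.0e-20). Fzd6, a receptor of the planar polarity branch (chromosome 15, 39006034 to 39038188, plus strand), had 642, 744 and 734 normalized counts in the SARAF-KO-labelled libraries, against 1070, 1104 and 1156 in the SARAF-WT-labelled ones. It fell by 0.65 (SE 0.05) with no overlap between groups.

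Fzd5 fell by 0.46 (SE 0.05), Fzd7 fell by 0.19 (SE 0.03) and Fzd1 and Fzd2 each fell by 0.13. Fzd3 (0.11, 95% interval -0.05 to 0.27) and Fzd8 (0.01, -0.06 to 0.07) did not pass the test. Fzd3 also lies on chromosome 14, where 17 of 29 tested genes within 2 Mb were lower with a median log2 change of -0.34. Per kilobase the 9 Frizzled genes of the table summed to 7991 ± 32.3 in the SARAF-KO-labelled libraries and 8952 ± 92.1 in the SARAF-WT-labelled ones. Fzd1 alone made up 69.3% ± 0.07 of it in the SARAF-KO-labelled libraries and 67.8% ± 0.56 in the SARAF-WT-labelled ones, so the sum follows Fzd1. The share of Fzd4 was 0.587% ± 0.008 in the SARAF-KO-labelled libraries and 2.01% ± 0.08 in the SARAF-WT-labelled ones.

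The co-receptors moved in both directions. All 5 passed the test, as did 56.2% of all genes tested. Both ROR genes and Lrp6 were lower, and Lrp5 and Ryk were higher. Ror2, a receptor tyrosine kinase that binds WNT5A (ENSMUSG00000021464.14, chromosome 13, 53109312 to 53286124, minus strand), had 2971, 2879 and 2875 normalized counts in the SARAF-KO-labelled libraries, against 5197, 4799 and 4841 in the SARAF-WT-labelled ones. Its log2 change was -0.77 (SE 0.03, limma adjusted p = 2.3e-16). Its relative Ror1 (chromosome 4, 100095791 to 100444765, plus strand), far less abundant, had 26.3, 28.3 and 34.5 normalized counts in the SARAF-KO-labelled libraries, against 80.0, 59.1 and 74.8 in the SARAF-WT-labelled ones, and changed by -1.23 (SE 0.18). In both genes every SARAF-KO-labelled library was below every SARAF-WT-labelled library.

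The LRP pair that binds Wnt together with a Frizzled in the canonical branch moved in opposite directions. Lrp6 (ENSMUSG00000030201.15, chromosome 6, 134446476 to 134566965, minus strand) had 3246, 3335 and 3225 normalized counts in the SARAF-KO-labelled libraries, against 5288, 5636 and 5625 in the SARAF-WT-labelled ones, a log2 change of -0.75 (SE 0.03, limma adjusted p = 9.6e-17). Lrp5 was higher by 0.32 (SE 0.03). Per kilobase, Lrp5 was at 312 ± 9.92 and Lrp6 at 239 ± 4.25 in the SARAF-KO-labelled libraries, while in the SARAF-WT-labelled ones Lrp5 was at 249.5 ± 8.44 and Lrp6 at 403 ± 14.45 (SD, n = 3 each). The order of these levels per kilobase thus differed between the groups, and it rests on the annotated exon lengths. By mean normalized counts Lrp6 was above Lrp5 under both labels. These means were 3269 and 3037 in the SARAF-KO-labelled libraries, and 5517 and 2430 in the SARAF-WT-labelled ones. Ryk, an atypical Wnt receptor, was higher by 0.14 (SE 0.02), where 10 of 18 tested genes within 2 Mb were higher and 3 lower with a median of 0.11.

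The secreted antagonists were dominated by Sfrp1, which rose, while most of the others fell. Sfrp1, a soluble protein with a Frizzled-like domain that captures Wnts (ENSMUSG00000031548.7, chromosome 8, 23411502 to 23449632, plus strand), had 95155, 91507 and 89037 normalized counts in the SARAF-KO-labelled libraries, against 51011, 49918 and 49153 in the SARAF-WT-labelled ones. The groups were far apart, at a log2 change of 0.88 (SE 0.03, limma adjusted p = 4.0e-19). Sfrp1 stood at percentile 99.9 of all genes tested by mean normalized count. Of the 28 tested genes within 2 Mb of it, 16 were higher and 3 lower in the SARAF-KO-labelled libraries, with a median log2 change of 0.27. The change of Sfrp1 was thus larger than the median of its neighbours. Saraf, which was also higher, lies on the same chromosome at 34154575 to 34170821, outside that window. A link between these changes was not tested.

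Frzb, a relative of Sfrp1 known from cartilage (ENSMUSG00000027004.3, chromosome 2, 80411970 to 80447625, minus strand), ran the other way, with 121, 122 and 122 normalized counts in the SARAF-KO-labelled libraries, against 453, 490.3 and 465 in the SARAF-WT-labelled ones. It changed by -1.94 (SE 0.08, limma adjusted p = 1.9e-16). The chondrocyte markers Sox9 (-0.51) and Acan (-0.66) were lower too, while Col2a1, which defines cartilage, had 8.50 to 10.3 normalized counts in the SARAF-KO-labelled libraries and 2.63 to 7.09 in the SARAF-WT-labelled ones, and the part of such cells in the change of Frzb was not tested. Sfrp2 fell by 0.29 (SE 0.04). Sfrp4 (-0.28, 95% interval -0.94 to 0.39) was near the minimum level and did not pass the test, and Sfrp5 and Wif1 had at most 2.63 normalized counts in any library. Per kilobase the 5 genes of the SFRP family summed to 21521 ± 722 in the SARAF-KO-labelled libraries and 12153 ± 215 in the SARAF-WT-labelled ones. Sfrp1 was 97.7% ± 0.05 of that sum in the SARAF-KO-labelled libraries and 94.2% ± 0.10 in the SARAF-WT-labelled ones, and Frzb was 0.175% ± 0.007 in the SARAF-KO-labelled libraries and 1.19% ± 0.06 in the SARAF-WT-labelled ones.

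Among the Dickkopfs and other antagonists, Dkk2, whose protein binds LRP6 (chromosome 3, 132085292 to 132180304, plus strand), had 321, 379 and 379.6 normalized counts in the SARAF-KO-labelled libraries, against 568, 632 and 660.5 in the SARAF-WT-labelled ones. It fell by 0.79 (SE 0.07). Notum, the enzyme that removes the lipid from Wnts (chromosome 11, 120653788 to 120661175, minus strand), had 46.7, 62.5 and 60.1 normalized counts in the SARAF-KO-labelled libraries, against 82.05, 72.6 and 85.4 in the SARAF-WT-labelled ones. The groups of Notum did not overlap but came close, the log2 change was -0.50 (SE 0.15, limma adjusted p = 0.0072), and the call was lost with DESeq2 (adjusted p = 0.052) and without SARAF-KO replicate 1 (0.057). Kremen1, a Dickkopf receptor, fell by 0.20 (SE 0.04). Dkk1 (0.46, 95% interval -0.29 to 1.21) and Dkk3 (-0.07, -0.14 to 0.00) did not pass the test, and Dkk1 reached the minimum mean only through the SARAF-KO-labelled libraries, since it averaged 9.93 in the SARAF-WT-labelled ones.

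The R-spondins fell together. The 3 listed ligand genes were all lower in the SARAF-KO-labelled libraries, Rspo3 most, where 28.0% of all genes tested were lower. Rspo3 (ENSMUSG00000019880.10, chromosome 10, 29452416 to 29535867, minus strand) had 549.8, 575 and 544 normalized counts in the SARAF-KO-labelled libraries, against 2133, 2355 and 2456 in the SARAF-WT-labelled ones, a 4.16-fold difference of means. The log2 change was -2.05 (SE 0.05, limma adjusted p = 2.2e-21), the smallest adjusted p of the 50 genes. Rspo1 (chromosome 4, 124986430 to 125009099, plus strand) had 175, 162 and 181 normalized counts in the SARAF-KO-labelled libraries, against 417, 395 and 424 in the SARAF-WT-labelled ones, and changed by -1.25 (SE 0.08). In neither gene did any library of one label reach the values of the other.

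Rspo2 (chromosome 15, 43020794 to 43170826, minus strand), known for its part in limb and lung outgrowth, had 2078, 1897 and 1909 normalized counts in the SARAF-KO-labelled libraries, against 2758, 2933 and 3049 in the SARAF-WT-labelled ones. It changed by -0.57 (SE 0.04). With Rspo4 included, the R-spondins summed to 664 ± 19.1 normalized counts per kilobase in the SARAF-KO-labelled libraries and 1548 ± 80.9 in the SARAF-WT-labelled ones. Rspo2 made up 57.8% ± 1.30 of that sum and Rspo3 27.2% ± 1.34 in the SARAF-KO-labelled libraries, while in the SARAF-WT-labelled ones Rspo2 was 36.8% ± 0.08 and Rspo3 48.4% ± 1.02.

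On the receiving side of the R-spondins, the 3 LGR receptors did not move alike. Lgr4, the abundant one, had 516 to 557 normalized counts in the SARAF-KO-labelled libraries and 520.0 to 585 in the SARAF-WT-labelled ones, a log2 change of -0.05 (95% interval -0.17 to 0.07) that did not pass the test. Lgr5, a stem cell marker and canonical target (chromosome 10, 115450311 to 115587780, minus strand), had 10.2, 11.1 and 5.92 normalized counts in the SARAF-KO-labelled libraries, against 29.4, 23.8 and 23.6 in the SARAF-WT-labelled ones, and changed by -1.44 (SE 0.30, limma adjusted p = 0.00028). It passed the minimum mean only through the SARAF-WT-labelled libraries, as it averaged 9.08 in the others. Lgr6, below the minimum mean, had 11.0, 23.1 and 9.86 normalized counts in the SARAF-KO-labelled libraries and 4.05, 2.07 and 1.31 in the SARAF-WT-labelled ones. These values did not overlap but rest on few reads, and no main test was made of them.

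The membrane ligases ZNRF3 and RNF43, which remove Frizzleds and are themselves canonical targets, moved in opposite directions. Rnf43 (chromosome 11, 87662722 to 87735539, plus strand) had 248, 222 and 229.7 normalized counts in the SARAF-KO-labelled libraries, against 415, 356 and 481 in the SARAF-WT-labelled ones. It changed by -0.83 (SE 0.09, limma adjusted p = 1.7e-08), with a wide spread among the SARAF-WT-labelled libraries but no overlap. Znrf3 was higher by 0.24 (SE 0.06).

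Inside the cell, the core of the canonical branch differed little. Ctnnb1, which encodes beta-catenin, had 23418 to 23560 normalized counts in the SARAF-KO-labelled libraries and 22957 to 24270.1 in the SARAF-WT-labelled ones, with a log2 change of -0.01 and a 95% interval of -0.06 to 0.04. Apc (0.02, -0.04 to 0.09) and Dvl3 (-0.00, -0.07 to 0.06) did not pass the test either. Axin1 (0.07), Dvl1 (0.13), Dvl2 (-0.10) and Gsk3b (-0.11) passed it at changes this small, and the call of Axin1 was lost in 7 of 18 alternatives, among them each fit without 1 of the 3 SARAF-KO replicates (adjusted p 0.066 to 0.15) and without SARAF-WT replicate 1 (0.10). All of these compare RNA and not the protein, whose stability the pathway controls.

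The inducible inhibitors of the cytoplasm moved more. Axin2, the scaffold of the destruction complex that canonical signaling itself induces (ENSMUSG00000000142.15, chromosome 11, 108920349 to 108950783, plus strand), had 177, 167 and 180.4 normalized counts in the SARAF-KO-labelled libraries, against 94.2, 86.0 and 105 in the SARAF-WT-labelled ones. It was higher by 0.87 (SE 0.11, limma adjusted p = 2.5e-07). Nkd2, which binds Dishevelled (ENSMUSG00000021567.15, chromosome 13, 73818534 to 73847631, minus strand), had 281, 242 and 272 normalized counts in the SARAF-KO-labelled libraries, against 96.2, 103 and 81.4 in the SARAF-WT-labelled ones, and was higher by 1.50 (SE 0.11, limma adjusted p = 1.0e-11). Both genes had every SARAF-KO-labelled library above every SARAF-WT-labelled library.

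Nkd1, the relative of Nkd2 and a feedback target (chromosome 8, 88521354 to 88594884, plus strand), had 22.9, 20.6 and 13.8 normalized counts in the SARAF-KO-labelled libraries, against 31.4, 27.0 and 27.6 in the SARAF-WT-labelled ones. The change of -0.59 (SE 0.25) only just passed the threshold, at a limma adjusted p of 0.048. The call was lost in 11 of the 17 alternatives that tested it, including every fit without 1 library other than SARAF-KO replicate 1 (adjusted p 0.063 to 0.23 over those 5 fits). Of the TCF/LEF genes, which encode the DNA-binding partners of beta-catenin, Tcf7l1 fell by 0.15 (SE 0.04). Tcf7 (0.09, 95% interval 0.00 to 0.17), Tcf7l2 (0.01, -0.09 to 0.11) and Lef1 (-0.26, -0.75 to 0.23) did not pass the test.

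**Figure D4:**
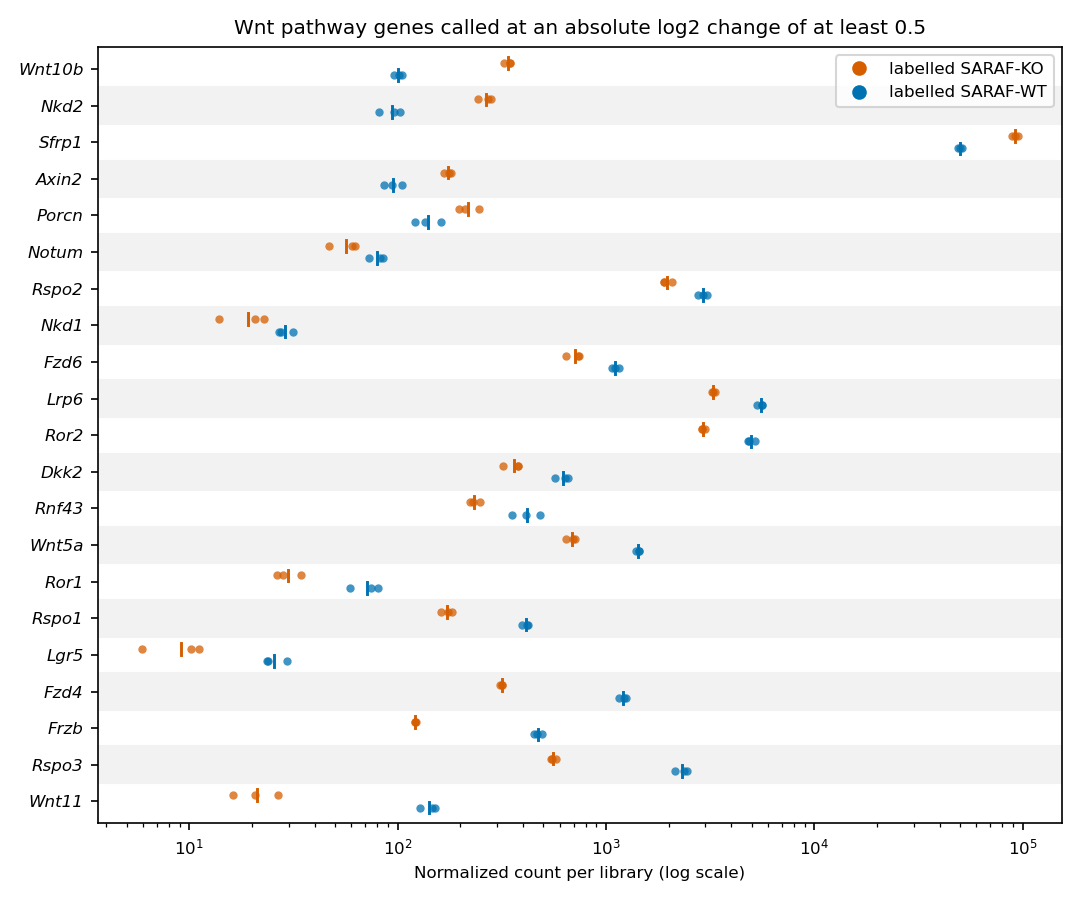
Normalized counts per library on a log axis for the 21 listed genes called at an absolute log2 change of at least 0.5, sorted by change (points, libraries; vertical ticks, means of 3; upper points of each row labelled SARAF-KO, lower points labelled SARAF-WT). The groups overlap in none of the 21 genes, which were picked by the difference between these same groups. Of all genes tested, 61.4% have no overlap. Sfrp1, at 89037 to 95155 in the SARAF-KO-labelled libraries, is the most abundant and Lgr5 at 5.92 to 29.4 among the least.

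Genes known as direct feedback targets of canonical signaling did not move in 1 direction. Of 9 among the list, Axin2 and Znrf3 were higher (22.2%) and Lgr5, Rnf43, Nkd1 and Notum were lower (44.4%). Dkk1, Lef1 and Tcf7 did not pass the test. Of all genes tested 28.2% were higher and 28.0% lower. The calls of Nkd1 and Notum were lost in 11 of 17 and 2 of 18 alternatives. Nkd2, not counted among the 9, was higher by 1.50. Over the 7 of them that averaged 10 or more in each group, which leaves out Lgr5 and Dkk1, 2 were higher and 3 lower. These are 28.6% and 42.9%, against 28.1% and 28.1% of all genes under that filter. The median log2 change of these 9 was -0.26, and that of all genes tested -0.0014. Of 7 further targets outside the list, 3 (42.9%) were higher and 2 (28.6%) lower. They include Wisp2, a CCN matrix protein of mesenchymal cells, with 369, 358 and 379 normalized counts in the SARAF-KO-labelled libraries, against 152, 165 and 167 in the SARAF-WT-labelled ones, a log2 change of 1.19 (SE 0.08). Ccnd1 and Myc, named after their values were seen, were also higher, by 0.75 (SE 0.04) and 0.45 (SE 0.03), while Wisp1 (-0.14) and Tnfrsf19 (-0.52) were lower.

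The rest of the pathway was described with 71 further genes, of which 67 were in the table and 57 were tested. Of these 21 (36.8%) were lower and 13 (22.8%) higher, against 28.0% and 28.2% of all genes, and 22.8% were called at an absolute log2 change of at least 0.5, against 12.7%. Of 13 planar polarity genes, which act with non-canonical Wnts, 8 were lower and 0 higher in the SARAF-KO-labelled libraries, with a median log2 change of -0.31. Of 10 further genes of the destruction complex and its regulators 1 was lower and 2 were higher, with a median of -0.02. These genes are Apc2, at -0.53, and Csnk1a1 and Csnk1e, at 0.10 and 0.14, all named after their values were seen.

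Only 3 of these further genes changed by at least 1 on the log2 scale, and all were higher in the SARAF-KO-labelled libraries. Besides Wisp2 they were Wnt7b and Cxxc4. Wnt7b, a canonical ligand mostly known from epithelia, had 54.4, 60.8 and 66.1 normalized counts in the SARAF-KO-labelled libraries, against 3.04, 10.4 and 9.19 in the SARAF-WT-labelled ones, a log2 change of 2.98 (SE 0.31). The epithelial marker list, of which 5 genes were in the table and only Krt18 reached the minimum mean, summed to 30.6 to 42.8 normalized counts in the SARAF-KO-labelled libraries and 81.0 to 105 in the SARAF-WT-labelled ones. Cxxc4, an inhibitor that binds Dishevelled, had 29.7, 28.3 and 24.6 normalized counts in the SARAF-KO-labelled libraries, against 16.2, 14.51 and 6.57 in the SARAF-WT-labelled ones, and changed by 1.17 (SE 0.30). Wnt7b passed the minimum mean only through the SARAF-KO-labelled libraries.

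The libraries were prepared with a kit that does not mark strand. Reads of a gene and of a model on the opposite strand that overlaps its exons therefore cannot be told apart, which applies among the large changes to Wnt5a, Wnt11, Fzd6, Notum, Rspo3 and Axin2. The overlapping exon stretches of these run between 105 and 612 bases, and none of those opposite models has a row of its own in the table.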

How the data were processed

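MEF RNA was sequenced in 6 libraries, 3 SARAF-KO-labelled and 3 SARAF-WT-labelled, grouped by sample title. Per the labels and the methods, the authors mapped reads with TopHat2 2.0.10 to GRCm38, counted them per gene with HTSeq on Ensembl 82 and normalized them with DESeq2. The deposited values are normalized counts, a signal in which 100% of values came out as whole reads (tolerance 1e-06). The table's 6 columns of the authors' own comparison (mean, fold change with its error, statistic, p-value and adjusted p-value) were not used.

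Log2(normalized count + 1) was tested two-sided with limma 3.58.1 in R 4.3.3, with a variance trend, wherever the mean reached 10 (13986 genes), with Benjamini-Hochberg adjustment over all of them and a threshold of 0.05. A gene past it is called. Run on the recovered reads, edgeR 4.0.16 called 7926 of 14072 genes. The 18 alternatives also included limma-voom and DESeq2 1.42.0 on those reads, TMM and total count scaling, minimum means of 50 and none, pseudocounts of 0.5 and 5, a threshold of 0.01, thinned reads, a replicate block and leaving out each library. The test was checked on simulated data.

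Positions and exon lengths came from GENCODE M21 (GRCm38; 96.0% of symbols matched), and windows before genes from RefSeq. Chi-square over gene counts, per degree of freedom, lay at 1.53 to 3.99 between libraries of 1 label and 39.3 to 47.2 across labels, so none was treated as a copy.

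The genes and lists were chosen with earlier results of these data known. Values per library are given for listed genes called at an absolute log2 change of at least 0.5, other listed genes are given by counts, ranges and examples, and further pathway genes are named at 1 or more. Sums per kilobase and neighbouring genes are descriptions without a test. Intervals are 95% limma intervals.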

Additional observations from a re-analysis of the deposited data

How the results depend on the processing

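Of the 36 called genes 33 kept their call under every alternative that tested them and none changed sign. The exceptions are Nkd1, Axin1 and Notum. Over the 18 alternatives 9 to 11 listed genes were higher and 24 to 26 lower, 9 to 14 of the further pathway genes were higher and 18 to 22 lower, and 6423 to 7926 of all genes were called. Of the 14 uncalled genes none became called, and 7 took the other sign somewhere. Sfrp4 reached a log2 change of 0.0903 with thinned reads. Without 1 library the log2 change ran between -0.0194 and 0.0275 for Fzd8, between -0.0197 and 0.0264 for Tcf7l2, between -0.0297 and 0.00871 for Dvl3, between -0.0843 and 3.38e-05 for Lgr4, between -0.0328 and 0.00735 for Ctnnb1 and between -0.0127 and 0.0469 for Apc. The cause was not tested.

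Replicate numbers are shared between the groups, but libraries of the same number did not deviate together (correlations -0.001, 0.002 and -0.001). The spread within a label was small, at a chi-square per degree of freedom of 1.53 to 3.99. These correlations therefore cannot tell whether the cultures were paired. With a replicate block 35 of the 50 genes were called, 9 higher and 26 lower, and 7801 of all genes. Only Axin1 lost its call (adjusted p = 0.051), and no library correlated best with its own number.

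Lgr6, untested for its low mean, was called higher by DESeq2, in the fit that kept all genes and without SARAF-WT replicate 3. Genes of few counts, such as Lgr5, Nkd1 and Dkk1, have wide intervals at this depth, and 3 libraries per label of unstated origin limit what their spread can show.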
